A study of Rattus norvegicus with 10 samples.

Results

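The receptors through which a cell holds its matrix were followed here as a set of 10 named genes: the integrin chains Itgb1, Itgb5, Itgav, Itga1, Itga2, Itga5, Itga6 and Itga10, the hyaluronan receptor Cd44 and the discoidin domain receptor Ddr1. They were taken by symbol, and 8 of the 10 were found among the 10184 genes of the table. Itga2 and Cd44 were not analysed here. Of the 8, 6 passed the filter on low values and were tested, and Itgav and Itga1 did not pass it. The 5 wild-type (WT) libraries came from RCS cells, a rat chondrosarcoma line with a cartilage-like phenotype. The 5 ARSL KO libraries came from RCS cells in which ARSL, the gene of the sulfatase arylsulfatase L, was knocked out. All cultures were untreated, were kept in the same serum-containing medium, and gave RNA 48 h after seeding. The labels call the libraries of a group biological replicates but state neither the number of knockout clones nor the culture days, so the genotype cannot be told apart from another difference between the lines.

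Integrins are pairs of one alpha and one beta chain that span the membrane and tie the extracellular matrix to the actin cytoskeleton. The alpha chain largely sets which ligand is bound. In cartilage, chondrocytes bind collagen II through alpha1-beta1 and alpha10-beta1, fibronectin through alpha5-beta1, laminins through alpha6-beta1, and vitronectin and other ligands with an RGD motif through alphav-beta5. CD44 holds hyaluronan, and with it aggrecan, at the cell surface. DDR1 is a receptor tyrosine kinase that is activated by collagen itself and is not an integrin.

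Recovered reads ranged from 2065594 to 2591819 per library over the listed genes. WT 3 and WT 4 stood apart from the other libraries, with scores of 28.0 and 26.8 on the first principal component, which held 51.1% of the variance of the tested genes. ARSL KO 4, at 7.91, lay between those 2 and the rest, and the other 7 libraries lay between -15.0 and -2.96. Of 11 chondrocyte markers 10 were listed, Acan and Col2a1 among them, and Sox9 was not analysed here. The summed normalised reads of the 10 ranged from 35744 to 55415 in WT and from 34475 to 43938 in KO. That sum was 54696 in WT 3 and 55415 in WT 4, above every other library. Its largest part was Col9a1, with means of 17981 in WT and 13922 in KO. The sum does not stand for each marker: Acan, Matn1 and Sox5 had their highest value in a KO library. All 5 endothelial markers and 5 of 7 fibroblast markers were not analysed here. The listed fibroblast markers summed to 12.2 to 49.2 normalised reads in WT and 16.6 to 41.0 in KO, and the 2 listed of 4 muscle markers to 11.6 to 27.4 and 7.17 to 22.4. For 2 listed of 6 leukocyte markers the sums were 26.1 to 47.0 in WT and 10.7 to 28.3 in KO. Most of this was Cd79a, with means of 32.2 in WT and 15.8 in KO, and Cd68 had means of 4.19 and 3.77. Only 1 of the 2 was tested, and it did not pass. The 1 listed of 5 epithelial markers, Krt8, had 431 to 510 normalised reads in WT and 396 to 497 in KO. ARSL itself was not analysed here, so it gives no check of the genotype labels.

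None of the 6 tested receptor genes passed the test between ARSL KO and WT. The collagen receptor kinase Ddr1 had 1.38-fold fewer normalised reads in KO and the beta chain Itgb5 1.24-fold fewer, and both missed the threshold. In such bulk RNA, fewer cells with a transcript and less of it per cell cannot be told apart. The means of Itgb1, Itga5, Itga6 and Itga10 differed by 1.09-fold or less. The test was limma on the deposited log2-like values, with Benjamini-Hochberg adjustment over 8431 genes and a threshold of 0.05 on the adjusted p. Over all tested genes, 96 passed (1.14%), 22 higher (0.261%) and 74 lower in KO (0.878%). In the 7 libraries other than WT 3, WT 4 and ARSL KO 4, again 0 of the 6 receptor genes passed, and 300 of 8431 genes passed (3.56%). At an unadjusted p under 0.05 those 7 libraries gave 2 of the 6 receptor genes (Itga10 and Ddr1), against 1341 of 8431 genes (15.9%). In all 10 libraries the unadjusted p was under 0.05 for 2 of the 6 receptor genes (Ddr1 and Itgb5), against 1136 of 8431 genes (13.5%). The groups overlapped for each of the 6 tested receptor genes, and also for Itgav and Itga1. Over all tested genes, 4.26% had groups without overlap, so 0 among 6 is no contrast to that share. The median difference, KO minus WT, was -0.05 over the 6 genes and 0.01 over all tested genes on the log2-like scale. In this scale a unit is close to a 2-fold change for well-expressed genes and understates the fold of weakly expressed ones. Levels of the receptor genes are given per gene and are not compared with each other, since no transcript length enters these values.

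**Figure D1:**
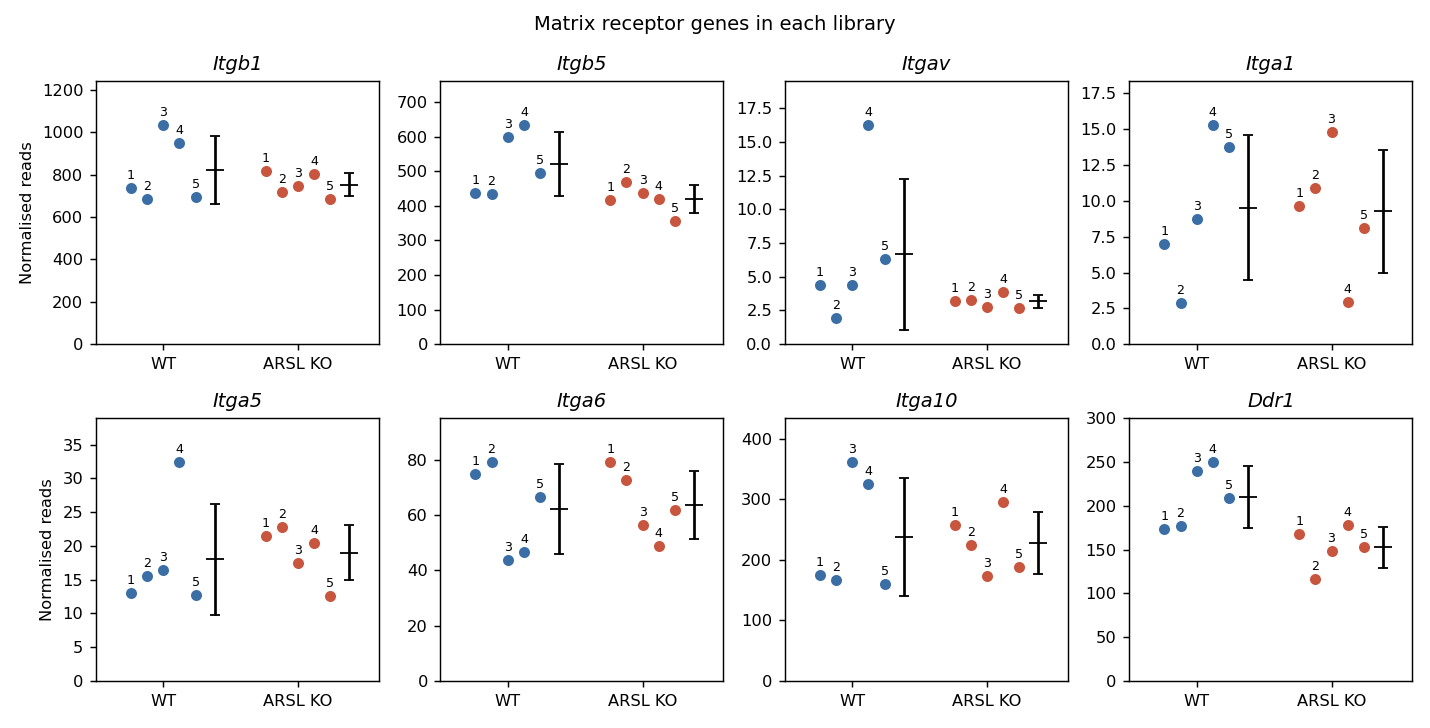
Normalised reads (vertical axes, each from 0) of the 8 listed receptor genes in 5 WT libraries (blue) and 5 ARSL KO libraries (red), numbered by replicate; black marks are the group mean ± SD. WT 3 and WT 4 are the highest libraries for Itgb1, Itgb5, Itga10 and Ddr1, and the groups overlap in every panel.

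Itgb1 encodes the beta1 chain, the partner of the alpha1, alpha2, alpha5, alpha6 and alpha10 chains. Its normalised reads were 738, 686, 1035, 949 and 697 in WT 1 to 5, and 819, 717, 745, 801 and 686 in ARSL KO 1 to 5. High values came from WT 3 and WT 4, and the other WT libraries lay within the range of the KO libraries. The WT mean was 821 ± 160 and the KO mean 754 ± 56.0 (SD, n = 5 each). The difference was -0.10 on the log2-like scale (SE 0.119, 95% interval -0.36 to 0.15, limma adjusted p = 0.730). Its sign turned without WT 3, WT 4 and ARSL KO 4, at 0.06 (95% interval -0.11 to 0.24, limma adjusted p = 0.796).

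Itgb5 encodes the beta5 chain, which pairs with the alphav chain. It had 438, 434, 600, 634 and 494 normalised reads in WT 1 to 5, and 417, 468, 437, 421 and 357 in ARSL KO 1 to 5. The 2 highest libraries were again WT 4 and WT 3, the lowest was ARSL KO 5, and WT 1 and WT 2 lay among the KO values. The means were 520 ± 92.5 and 420 ± 40.6 (SD, n = 5 each), a difference of -0.27 (SE 0.116, 95% interval -0.52 to -0.02, limma adjusted p = 0.316). The difference of Itgb5 was -0.11 without WT 3, WT 4 and ARSL KO 4 (95% interval -0.30 to 0.08, limma adjusted p = 0.645).

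The partner of that chain, Itgav, had few reads and lay below the filter on low values. The recovered whole reads of Itgav were 5, 2, 4, 17 and 6 in WT 1 to 5 and 3, 3, 3, 4 and 3 in ARSL KO 1 to 5. WT 4 alone exceeded 6 reads, and every KO library held 3 or 4. The means were 6.65 ± 5.59 and 3.17 ± 0.484 normalised reads (SD, n = 5 each). In a fit without a filter on low values, the difference of Itgav was -0.19 (SE 0.136, limma adjusted p = 0.571).

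Among the collagen-binding alpha chains, Itga10 was measured in all libraries with at least 151 reads. It encodes the alpha10 chain, known from cartilage as a collagen II receptor. Itga10 had 175, 166, 362, 325 and 160 normalised reads in WT 1 to 5, and 258, 225, 173, 296 and 187 in ARSL KO 1 to 5. The highest libraries were WT 3 and WT 4, ARSL KO 4 came next, and WT 1, WT 2 and WT 5 lay at the low end. The means were 238 ± 97.7 and 228 ± 50.5 (SD, n = 5 each), and the difference was -0.0043 (SE 0.202, 95% interval -0.44 to 0.43, limma adjusted p = 0.992). This was the widest interval of the 6 tested receptor genes. Without WT 3, WT 4 and ARSL KO 4 the 3 remaining WT libraries held 167 ± 7.81 normalised reads and the 4 remaining KO libraries 211 ± 38.3 (SD). The difference was then 0.26 (95% interval 0.04 to 0.49) and did not pass either (limma adjusted p = 0.215).

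Itgb1 and Itga10, the 2 chains of one collagen receptor, were both high in WT 3 and WT 4, and their promoter sequences are shown to set them side by side. The 250 bases before each RefSeq gene start on the rat assembly GRCr8, on which no value of the table rests, are given 5′ to 3′. That of Itga10 is chr2:186871461-186871710 on the plus strand, with the match to the MEF2 consensus in capitals. That of Itgb1 is chr19:73602027-73602276 on the plus strand, with the GC boxes (GGGCGG on either strand) in capitals.
Itga10: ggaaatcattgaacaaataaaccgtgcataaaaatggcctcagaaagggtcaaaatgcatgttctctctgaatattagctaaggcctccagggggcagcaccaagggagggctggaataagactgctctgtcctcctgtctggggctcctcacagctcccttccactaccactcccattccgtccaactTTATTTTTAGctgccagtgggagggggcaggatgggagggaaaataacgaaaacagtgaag
Itgb1: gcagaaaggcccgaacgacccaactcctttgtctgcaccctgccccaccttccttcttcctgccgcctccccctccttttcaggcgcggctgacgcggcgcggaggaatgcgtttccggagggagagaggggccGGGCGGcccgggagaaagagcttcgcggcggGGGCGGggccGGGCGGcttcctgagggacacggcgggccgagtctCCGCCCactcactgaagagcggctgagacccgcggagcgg
The Itga10 window held 3 CpG dinucleotides and no GC box, and the Itgb1 window held 28 CpG dinucleotides and 4 GC boxes. Itgb5 and Ddr1 were also high in WT 3 and WT 4. The Itgb5 window held 33 CpG dinucleotides and no GC box, and Ddr1 had windows with 7 and 33 CpG dinucleotides and 0 and 4 GC boxes. The median over 33469 promoter windows of this length was 5 CpG dinucleotides, and 30.5% of the windows held a GC box. A match to the MEF2 consensus, whose first base lay 61 bases before the start of Itga10, was found in 2.96% of all windows and in none of the other listed receptor genes that had a window. The motif was chosen after the sequences were seen, and a match is a description of the letters. A TATA box (TATAAA) and a SOX core (AACAAT), on either strand, were found in neither window. They occurred in 12.9% and 10.3% of all windows. Of the 8 listed receptor genes, 7 had at least 1 window and Itga6 had none.

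Itga1 encodes the alpha1 chain, which binds collagen IV and other collagens. It had 8, 3, 8, 16 and 13 recovered reads in WT 1 to 5 and 9, 10, 16, 3 and 9 in ARSL KO 1 to 5. Both groups held libraries with 3 reads and with 16 reads. The means were 9.53 ± 5.05 and 9.26 ± 4.32 normalised reads (SD, n = 5 each), and the fit without a filter on low values gave -0.01 (SE 0.148, limma adjusted p = 0.989).

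Itga5 encodes the alpha5 chain of the fibronectin receptor. It had 13.1, 15.5, 16.4, 32.5 and 12.7 normalised reads in WT 1 to 5, and 21.5, 22.8, 17.5, 20.5 and 12.6 in ARSL KO 1 to 5. WT 4 was the highest library, and of the other WT libraries each lay below 4 of the 5 KO libraries. The means were 18.0 ± 8.24 and 19.0 ± 4.08 (SD, n = 5 each). The difference of 0.05 did not pass (SE 0.127, 95% interval -0.22 to 0.32, limma adjusted p = 0.896), and without WT 3, WT 4 and ARSL KO 4 it was 0.17 (limma adjusted p = 0.624).

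Itga6 encodes the alpha6 chain of laminin receptors. It had 75.0, 79.4, 43.8, 46.8 and 66.6 normalised reads in WT 1 to 5, and 79.4, 72.8, 56.3, 48.8 and 61.9 in ARSL KO 1 to 5. The 3 lowest libraries were WT 3, WT 4 and ARSL KO 4, the ones that were highest for Itga10. The other KO libraries did not run opposite in the 2 genes: ARSL KO 1 was above the mean of each and ARSL KO 3 below it. The means were 62.3 ± 16.2 and 63.8 ± 12.3 (SD, n = 5 each). The difference was 0.03 (SE 0.131, 95% interval -0.25 to 0.31, limma adjusted p = 0.937), and -0.09 without those 3 libraries (limma adjusted p = 0.803).

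Ddr1 had the smallest p of the tested receptor genes. Its normalised reads were 173, 177, 240, 250 and 209 in WT 1 to 5, and 167, 116, 149, 178 and 153 in ARSL KO 1 to 5. ARSL KO 4 was the 1 KO library within the WT range, just above WT 1 and WT 2. ARSL KO 2 was the lowest library and WT 4 the highest. The means were 210 ± 35.1 and 153 ± 23.4 (SD, n = 5 each), a difference of -0.38 (SE 0.119, 95% interval -0.63 to -0.12, limma adjusted p = 0.169). Without WT 3, WT 4 and ARSL KO 4 the difference was -0.29 (95% interval -0.51 to -0.06, limma adjusted p = 0.163). The 4 remaining KO libraries, at 116 to 167, then lay below the 3 remaining WT libraries, at 173 to 209, but ARSL KO 4, the KO library within the WT range, is among those left out. At 3 against 4 libraries, 14.6% of tested genes had groups without overlap. The 3 genes whose values lay closest to those of Ddr1 over the 10 libraries were Gnb2, Mapk6 and Gbe1. Their root mean square differences from Ddr1, after each gene was centred on its own mean, were 0.0805, 0.0940 and 0.0962 on the log2-like scale. None of these 3 genes passed the test (limma adjusted p = 0.342, 0.153 and 0.357). Because Gnb2, Mapk6 and Gbe1 were picked for their likeness, their differences of -0.30, -0.32 and -0.30 are a description.

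**Figure D2:**
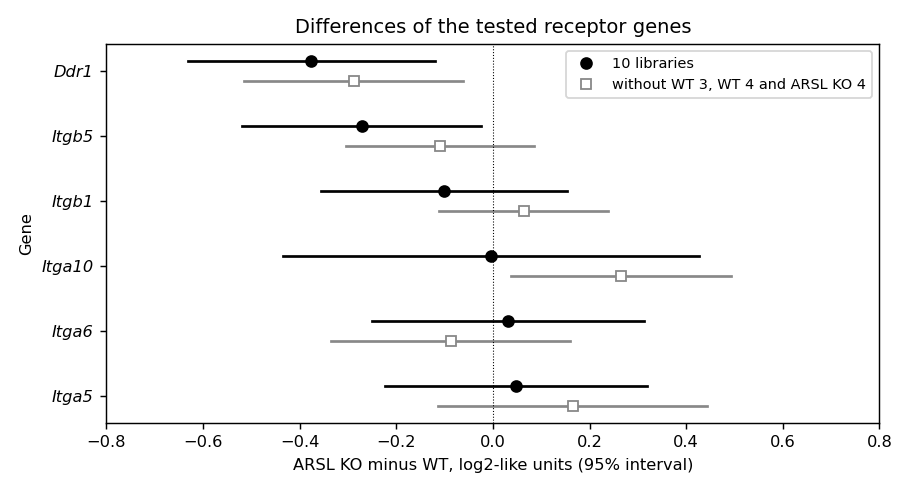
ARSL KO minus WT on the log2-like scale (horizontal axis) for the 6 tested receptor genes, with limma's 95% intervals, over 10 libraries (filled circles) and without WT 3, WT 4 and ARSL KO 4 (open squares). Ddr1 lies lowest at -0.38 and -0.29, and Itga10 moves from about 0 to 0.26.

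The receptor genes varied among the WT libraries. Both WT 3 and WT 4 were above the other 8 libraries for 4 of the 6 tested genes (Itgb1, Itgb5, Itga10 and Ddr1) and both below them for Itga6. Over all tested genes, 16% had both libraries above the other 8 and 17.1% had both below. These 2 libraries also had the highest summed chondrocyte markers, as given above, though not the highest value of each marker. The labels do not state what sets WT 3 and WT 4 apart, and the cause was not tested. On the log2-like scale the SD over WT libraries exceeded that over KO libraries for each of the 8 listed receptor genes, from 1.10 times for Ddr1 to 2.57 times for Itgb1 among the tested ones. The WT group holds both WT 3 and WT 4. The share of all tested genes with a larger SD in WT was not counted, so this is not shown to be particular to the receptor genes.

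**Figure D3:**
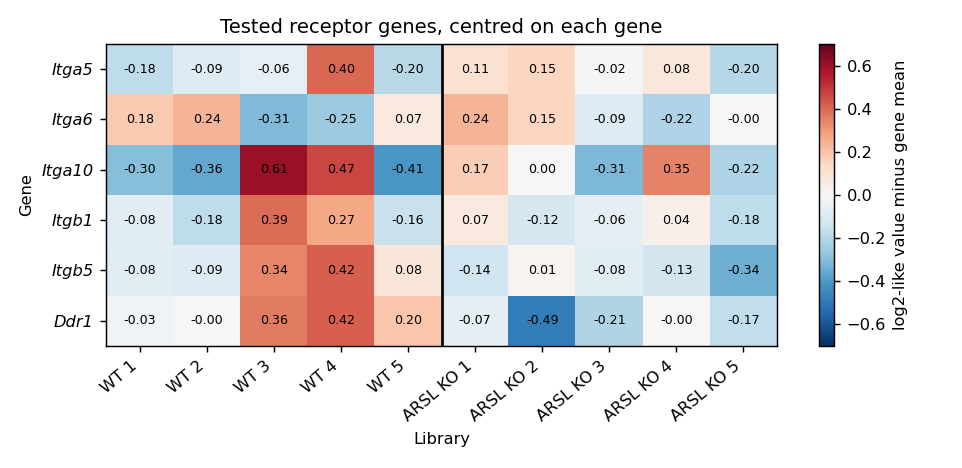
Log2-like value of each tested receptor gene (rows) in each library (columns) minus the gene's mean over the 10 libraries; red is above and blue below the mean, and the line parts WT from ARSL KO. WT 3 and WT 4 reach 0.61 and 0.47 for Itga10 and -0.31 and -0.25 for Itga6.

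Around these receptors, 130 further genes in 5 lists were examined, of which 74 were tested. Of these, 3 passed (4.05%, against 1.14% of all tested genes), all lower in KO. With 1 library left out, 1 to 4 passed. The lists were chosen with earlier results of these data known, so this share is a description. Of the 20 other integrin chains and Ddr2, 3 were tested and 0 passed by limma, with 0 at an unadjusted p under 0.05. Ddr2, the second collagen receptor kinase, had the smallest p of them. It had 546, 538, 1100, 1247 and 618 normalised reads in WT 1 to 5 and 623, 478, 620, 1029 and 659 in ARSL KO 1 to 5. WT 3, WT 4 and ARSL KO 4 were the 3 high libraries, and the other 7 lay together. The difference of -0.19 did not pass (SE 0.235, limma adjusted p = 0.747) and was 0.06 without those 3 libraries.

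Of the 30 tested integrin adaptors and focal adhesion genes, 1 fell, 0 rose and 29 did not pass, with a median difference of -0.08. An unadjusted p under 0.05 was found for 4 of the 30, against 13.5% of all tested genes. The gene that fell by the limma test was Nedd9, a scaffold protein of the Cas family that carries integrin signals. Nedd9 had 43.6, 51.3, 54.7, 51.6 and 32.8 normalised reads in WT 1 to 5, and 14.0, 15.2, 23.1, 29.3 and 21.5 in ARSL KO 1 to 5. Every KO library lay below every WT library. The means of Nedd9 were 46.8 ± 8.85 and 20.6 ± 6.24 (SD, n = 5 each), 2.27-fold lower in KO, with a difference of -0.62 (SE 0.120, limma adjusted p = 0.0207). Nedd9 differed by -0.60 without WT 3, WT 4 and ARSL KO 4 (limma adjusted p = 0.0108). Nedd9 no longer passed when WT 3 or any of ARSL KO 1, 2, 3 and 5 was left out (limma adjusted p up to 0.0684).

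The 18 tested matrix ligands held 2 genes that fell, 0 that rose and 16 that did not pass, where 0.878% of all tested genes fell. An unadjusted p under 0.05 was found for 9 of the 18, against 13.5% of all tested genes. Their median difference was -0.35, and 15 of the 18 differences were below 0, where 47.9% of all tested genes were. Without WT 3, WT 4 and ARSL KO 4 the median was -0.15 and 11 of the 18 differences were below 0, where 48.4% of all tested genes were. In that setting 4 of the 18 were lower in KO by the test, where 2.22% of all tested genes were. The list was chosen with earlier results of these data known, so these counts are a description and not a test of the list. Tgfbi, an extracellular adaptor protein that binds integrins and collagens, had 1213, 1141, 1358, 1460 and 1138 normalised reads in WT 1 to 5, and 788, 881, 623, 834 and 661 in ARSL KO 1 to 5. The groups did not overlap, the mean was 1.67-fold lower in KO (limma adjusted p = 0.00780), and with any 1 library left out the adjusted p was at most 0.0344. Col6a2, a chain of the pericellular collagen VI, had 845, 816, 1687, 1639 and 1215 normalised reads in WT 1 to 5, and 585, 499, 418, 764 and 428 in ARSL KO 1 to 5. The groups did not overlap here either, and the mean was 2.30-fold lower in KO, or 1.99-fold without WT 3, WT 4 and ARSL KO 4 (limma adjusted p = 0.0184 with all libraries). For both genes the highest libraries were WT 3 and WT 4, and for Col6a2 the highest KO library was ARSL KO 4. Col6a2 no longer passed when ARSL KO 2, 3 or 5 was left out (limma adjusted p up to 0.0752).

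Of 11 tested membrane partners of integrins and CD44, 0 passed by limma, and the median difference was -0.02. An unadjusted p under 0.05 was found for 2 of the 11, against 13.5% of all tested genes. Sdc4, a heparan sulfate proteoglycan that acts beside integrins in focal adhesions, had the smallest p of the list. It had 2706, 2903, 3828, 3849 and 2908 normalised reads in WT 1 to 5, and 4273, 3586, 4628, 3916 and 4053 in ARSL KO 1 to 5. WT 3 and WT 4 lay among the KO libraries, and the other WT libraries lay below all of them. The difference of 0.34 did not pass (SE 0.122, limma adjusted p = 0.220). Without WT 3, WT 4 and ARSL KO 4 it was 0.53 and passed (limma adjusted p = 8.71e-04), as did 1.34% of all tested genes in this direction. WT 3 and WT 4, the WT libraries that lay among the KO libraries, are among those left out. Sdc4 also passed with array quality weights (0.47, limma adjusted p = 0.0189).

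Of 12 tested ezrin-type linkers, hyaluronan enzymes and sheddases, 0 passed by limma, and the median difference was 0.06. An unadjusted p under 0.05 was found for 3 of the 12, against 13.5% of all tested genes. Mmp14, a membrane-bound metalloprotease that cleaves collagen and CD44, had 100, 109, 94.1, 170 and 78.2 normalised reads in WT 1 to 5. In ARSL KO 1 to 5 it had 150, 181, 151, 172 and 146. WT 4 was the 1 WT library within the KO range. The difference of 0.45 did not pass (SE 0.136, limma adjusted p = 0.152). It passed without WT 4 (0.58, limma adjusted p = 0.0192), with array quality weights (0.51, limma adjusted p = 0.0151) and without WT 3, WT 4 and ARSL KO 4 (0.55, limma adjusted p = 0.00440). The first and the last of these settings leave out WT 4, the WT library within the KO range. In the last setting 1 other gene of the list passed, in the opposite direction. This was Ezr, a linker of CD44 to actin, named after its values were seen, with a difference of -0.44 (limma adjusted p = 0.0474; -0.14 and 0.767 with all libraries).

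**Figure D4:**
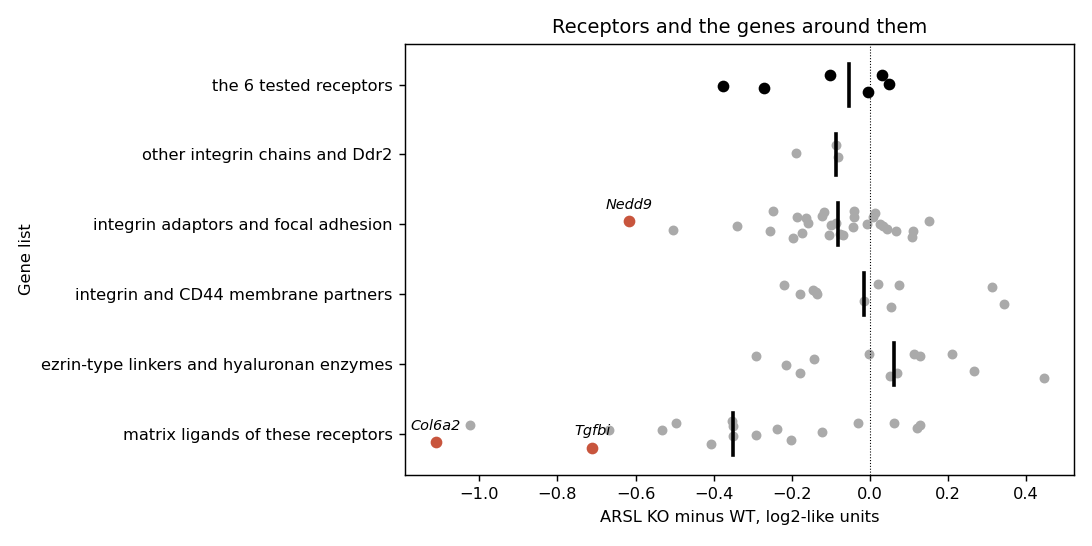
ARSL KO minus WT on the log2-like scale (horizontal axis) for the 6 tested receptor genes and the tested genes of 5 lists around them (1 point a gene); red, named points passed the limma test at an adjusted p of 0.05 and vertical bars are medians. The 3 genes that passed lie below 0, and the list of matrix ligands has the lowest median, -0.35.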

How the data were processed

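Digital mRNA-seq profiles of 5 WT and 5 ARSL KO libraries were used. The authors deposited 1 table of variance-stabilized, log2-like values normalized for library size. The submitters' processing notes name bcl2fastq, STAR 2.7.11a, HTSeq and build rn6. For the tool of the transformation, the gene filter and any use of strand, names and settings were not given in the sources used here. Inverting the closed form of the transformation gave whole reads for 100% of values within 0.001 reads. Dividing them by the size factor of the library gave normalised reads. Genes whose mean exceeded the lowest value (4.42, a count of 0) by 1 or more, about 10.7 normalised reads, were tested with limma 3.58.1 in R 4.3.3 (intensity trend, two-sided, Benjamini-Hochberg adjustment), and the fit was tested on simulated data. P-values weigh the difference between the groups against the spread between these libraries, which need not cover a spread between knockout clones.

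The receptor genes, lists and tests were chosen with earlier results of these data known. All receptor genes were named, with the largest calls of each list (up to 2 each way, or the gene with the smallest p) and the 3 genes closest to the receptor gene with the smallest p. Alternatives were other scalings, filters and variance models, limma-voom on the recovered reads, a replicate block and leaving out each library. Leaving out WT 3, WT 4 and ARSL KO 4 together was added after seeing the data. Promoter bases came from RefSeq, assembly GRCr8. Figures were drawn with matplotlib 3.10.9.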

Additional observations from a re-analysis of the deposited data

Results flagged for a closer look

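Itga5 in WT 4, at 32.5 normalised reads, lay far above the other WT libraries. Its gap to the nearest of them was 0.763 of the group's range on the log2-like scale, above Dixon's 95% critical value of 0.710 for 5 libraries. It was 1 such library among 16 groups of receptor values examined, and chance gives about 1 in 20 groups.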

How the results depend on the processing

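No tested receptor gene passed under any of the 20 alternatives, and Ddr1, Itgb5 and Itga5 kept their direction in each that gave them a value (Itga5 was not tested with the stricter filter). The adjusted p of Ddr1 ranged from 0.107 to 0.350 and that of Itgb5 from 0.204 to 0.645. Small differences turned sign: Itga10 with limma-voom (0.0039), median centring (0.0027), array weights (0.21) and without the 3 libraries WT 3, WT 4 and ARSL KO 4 (0.26); Itgb1 (0.021 and 0.063 in the last 2 settings); Itga6 (-0.063 and -0.087); and Ddr2 (0.015 and 0.057). With 1 library left out, Itga10 ranged from -0.11 to 0.15, Itga6 from -0.042 to 0.095 and Itgb1 from -0.16 to -0.02. The count of all calls, 96, was 60 with the stricter filter (fewer genes tested), 219 with array weights, 300 without the 3 libraries and 33 to 101 with 1 library left out. Leaving out WT 3 gave 62, ARSL KO 1 gave 53, ARSL KO 2 and ARSL KO 5 gave 37 each, and ARSL KO 3 gave 33. The 3 calls among the listed neighbours became 5 with array weights, 8 without the 3 libraries (2 of them higher in KO) and 1 to 4 with 1 library left out, 1 being the count without ARSL KO 2, 3 or 5. The cause was not tested. With the replicate number as a block 136 genes and 0 receptor genes passed. Deviations from the group means correlated at -0.06, 0.07, -0.29, 0.59 and 0.26 between the same-numbered libraries 1 to 5. The labels do not state the culture days, and these correlations cannot tell whether same-numbered libraries shared one. Low counts limit what can be read from Itgav and Itga1, with at most 17 and 16 reads in a library.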
